A study of Homo sapiens with 6 samples.

Results

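The mitochondrial ribosomal proteins were taken as all genes of the deposited table whose symbol begins with MRPL or MRPS followed by a digit. This gave 78 of 16809 genes, 49 with MRPL symbols, named for the large subunit, and 29 with MRPS symbols, named for the small subunit. They were followed in CAL-27, an established line from a human squamous carcinoma of the tongue, in 2 groups of 3 libraries. The ES-Cu group had received elesclomol, a copper ionophore, together with copper in a 1:1 ratio for 24 h, a treatment used to trigger the copper-dependent cell death called cuproptosis. The CON group was the normal control of the same line. The model is a single line, and no dose is given in the labels. Whether each library had its own culture is not stated, so the spread behind the p-values may be only technical.

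The mitochondrial ribosome translates the few proteins encoded by mitochondrial DNA, all of them subunits of the respiratory chain and ATP synthase. Its RNA comes from mitochondrial DNA, whereas all of its proteins are encoded in the nucleus, made in the cytosol and imported. The large subunit joins amino acids and the small subunit reads the mRNA. Some of the proteins have bacterial counterparts, and others were added to the ribosome of mitochondria. Symbols do not always give the place of a protein: MRPS18A and MRPS30 sit in the large subunit, and MRPS36 is now known as a subunit of the oxoglutarate dehydrogenase complex of the citric acid cycle and not as a ribosomal protein.

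Expression was given as TPM, a share of all transcripts corrected for transcript length, so that levels of different genes can be compared. Between 14959 and 15051 genes lay above 0 TPM in each library, the depth is unknown because TPM keeps no read totals, and pairs of libraries of one group had correlations of log2 values over genes, which are not independent replicates, of 0.994 to 0.995, and pairs from different groups had 0.937 to 0.939. Fixed markers of squamous epithelium were listed for 12 of 12 genes and summed to 5300.2 to 5341 TPM in ES-Cu and 5392 to 5465 TPM in CON libraries. This near-equal sum hides changes of single markers. In the deposited values 8 of the 12 were called lower by limma at an adjusted p under 0.05, a share near the 70.0% of all tested genes. Another 2 were called higher, against 13.6%. After median-of-ratios scaling, described below, 2 were called lower and 9 higher, and 6 of these 9 had been called lower before. In all 3 scalings used below, TP63 and CDH1 were lower (16.7%, against 31.2% of all tested genes). SFN and KRT6A were higher in all 3 (16.7%, against 13.5%). TP63, a transcription factor of basal squamous cells, averaged 24.5 ± 0.922 TPM in ES-Cu and 86.8 ± 1.34 TPM in CON libraries (SD, n = 3 each; log2 fold change -1.78). The adhesion protein CDH1 averaged 71.3 ± 3.01 TPM in ES-Cu and 173 ± 2.33 TPM in CON libraries (-1.27), and SFN, an epithelial 14-3-3 protein, 1233 ± 19.1 TPM in ES-Cu and 640.4 ± 31.4 TPM in CON libraries (0.95). The leukocyte marker PTPRC reached at most 0.04 TPM in either group. The 4 leukocyte markers listed summed to 49.5 to 54.55 TPM in ES-Cu and 60.45 to 67.2 TPM in CON libraries, nearly all of it CD68, a lysosomal protein. The fibroblast list summed to 3.88 to 4.43 TPM in ES-Cu and 9.33 to 10.3 TPM in CON libraries. Most of this was COL1A1, at means of 3.62 TPM in ES-Cu and 8.36 TPM in CON libraries. The endothelial list summed to 1.28 to 1.9 TPM in ES-Cu, with TEK listed at 0, and 7.19 to 7.56 TPM in CON libraries, with KDR listed at 0. Most of this was CDH5, at means of 1.46 TPM in ES-Cu and 7.15 TPM in CON libraries. The part of these markers in the results was not tested. In bulk RNA, fewer cells and less RNA per cell cannot be told apart.

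All 78 genes passed the filter of a mean of 1 TPM. Their mean levels ran from 5.59 TPM for MRPS33 to 517 TPM for MRPS24 in the ES-Cu libraries, and from 8.57 TPM for MRPL42 to 741 TPM for MRPS24 in the CON libraries. MRPS24, a small subunit protein on the path of the incoming mRNA, had 517, 522 and 512 TPM in the ES-Cu libraries, against 782, 714 and 728 TPM in the CON libraries. The order of the genes was much the same in both groups: across the 78 genes, the log2 levels of the groups correlated at r = 0.96 (Spearman's rho 0.96), a description over genes that share the same libraries. The median member stood at 54.9 TPM in ES-Cu and 83.2 TPM in CON libraries, where the median over all tested genes was 13.96 TPM in ES-Cu and 19.96 TPM in CON libraries.

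Summed over all members, the transcripts of the mitochondrial ribosome took a smaller share of the total in ES-Cu cells. The sum was 5839.8, 5783 and 5719 TPM in the ES-Cu libraries, against 8345, 8093 and 8279 TPM in the CON libraries. This was 0.578% ± 0.00606 of all TPM with ES-Cu and 0.824% ± 0.0131 in CON (SD, n = 3 each), a log2 difference of -0.51, and the groups did not overlap. The median log2 fold change over all 11927 tested genes was -0.50. After scaling by the median of ratios, which sets the median gene near 0, the log2 difference of the sum was 0.047.

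**Figure D1:**
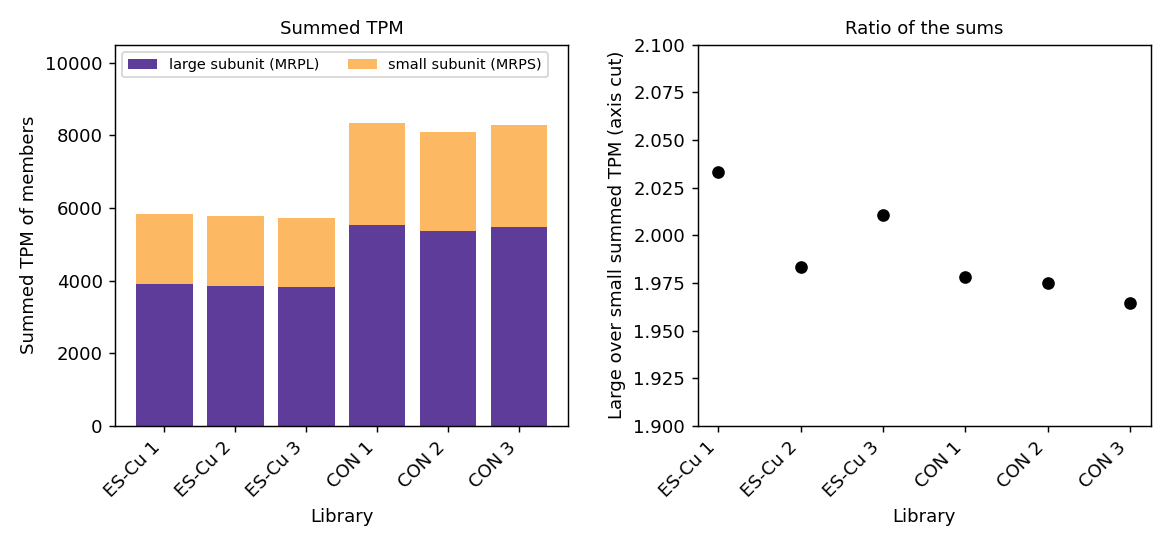
Left, summed TPM of the MRPL genes (purple) and MRPS genes (orange) in each of the 3 ES-Cu and 3 CON libraries. Right, the ratio of the large to the small subunit sum in each library, on an axis that does not start at 0. The ES-Cu sums lie between 5719 and 5839.8 TPM and the CON sums between 8093 and 8345 TPM, and the ratios lie between 1.96 and 2.03.

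Both subunits took smaller shares with ES-Cu. The MRPL genes summed to 3859 ± 49.4 TPM in ES-Cu and 5467 ± 86.6 TPM in CON libraries (SD, n = 3 each). The MRPS genes summed to 1921 ± 19.9 TPM in ES-Cu and 2772 ± 44.7 TPM in CON libraries. The ratio of the sums was 2.03, 1.98 and 2.01 with ES-Cu, against 1.98, 1.97 and 1.96 in CON. The ES-Cu ratios were all higher, but by a log2 difference of 0.026 on average, and the lowest ES-Cu library lay next to the highest CON library.

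Gene by gene, on the log2(TPM + 1) scale and with limma and Benjamini-Hochberg adjustment over all tested genes, 69 of 78 members (88.5%) were called lower in ES-Cu at an adjusted p under 0.05, where the background was 70.0% of all tested genes. Members called higher numbered 2 (2.56%), MRPL18 and MRPL47, against a background of 13.6%. The 7 without a call were MRPL1, MRPL32, MRPL48, MRPL50, MRPS18C, MRPS30 and MRPS36. All 3 ES-Cu libraries lay under all 3 CON libraries for 68 members (87.2%), against a background of 70.3%, and above them for 2 members, against 14.0%. The median log2 fold change was -0.58 over all members, -0.53 over MRPL genes and -0.58 over MRPS genes, beside -0.50 over all tested genes. From the lower to the upper quartile the members lay between -0.78 and -0.29.

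Because TPM has a fixed total, the direction of a small change depends on the scaling. After median-of-ratios scaling, 27 members (34.6%) were called lower, against a background of 35.8%, and 25 (32.1%) were called higher, against 38.0%. Of those 25 members, 16 had been called lower in the deposited values. After quantile normalization, 52 members (66.7%) were called lower, against 39.9%, and 10 (12.8%) were called higher, against 31.4%. In the following, a gene is said to have risen or fallen only where all 3 scalings gave a call of the same sign. By that rule 27 members (34.6%) fell, against a background of 31.2%, and 2 (2.56%) rose, against 13.5%. The share that fell was thus near the background, as was the share called lower after median-of-ratios scaling. In the deposited values and after quantile normalization, the share called lower was above the background. These differences were not tested. By subunit, 15 of 49 MRPL genes (30.6%) fell and 2 (4.08%) rose, and 12 of 29 MRPS genes (41.4%) fell and 0 rose. Of the 27 that fell, 18 kept that call without each library in turn, and 9 lost it without at least 1 library, namely MRPL17, MRPL24, MRPL58, MRPS12, MRPS16, MRPS18A, MRPS21, MRPS25 and MRPS33. With the GC trend of each library removed, a step that also removes the shift common to all genes of a library, 22 were still called lower. MRPL24, MRPL36, MRPL55, MRPS12 and MRPS18A were not.

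**Figure D2:**
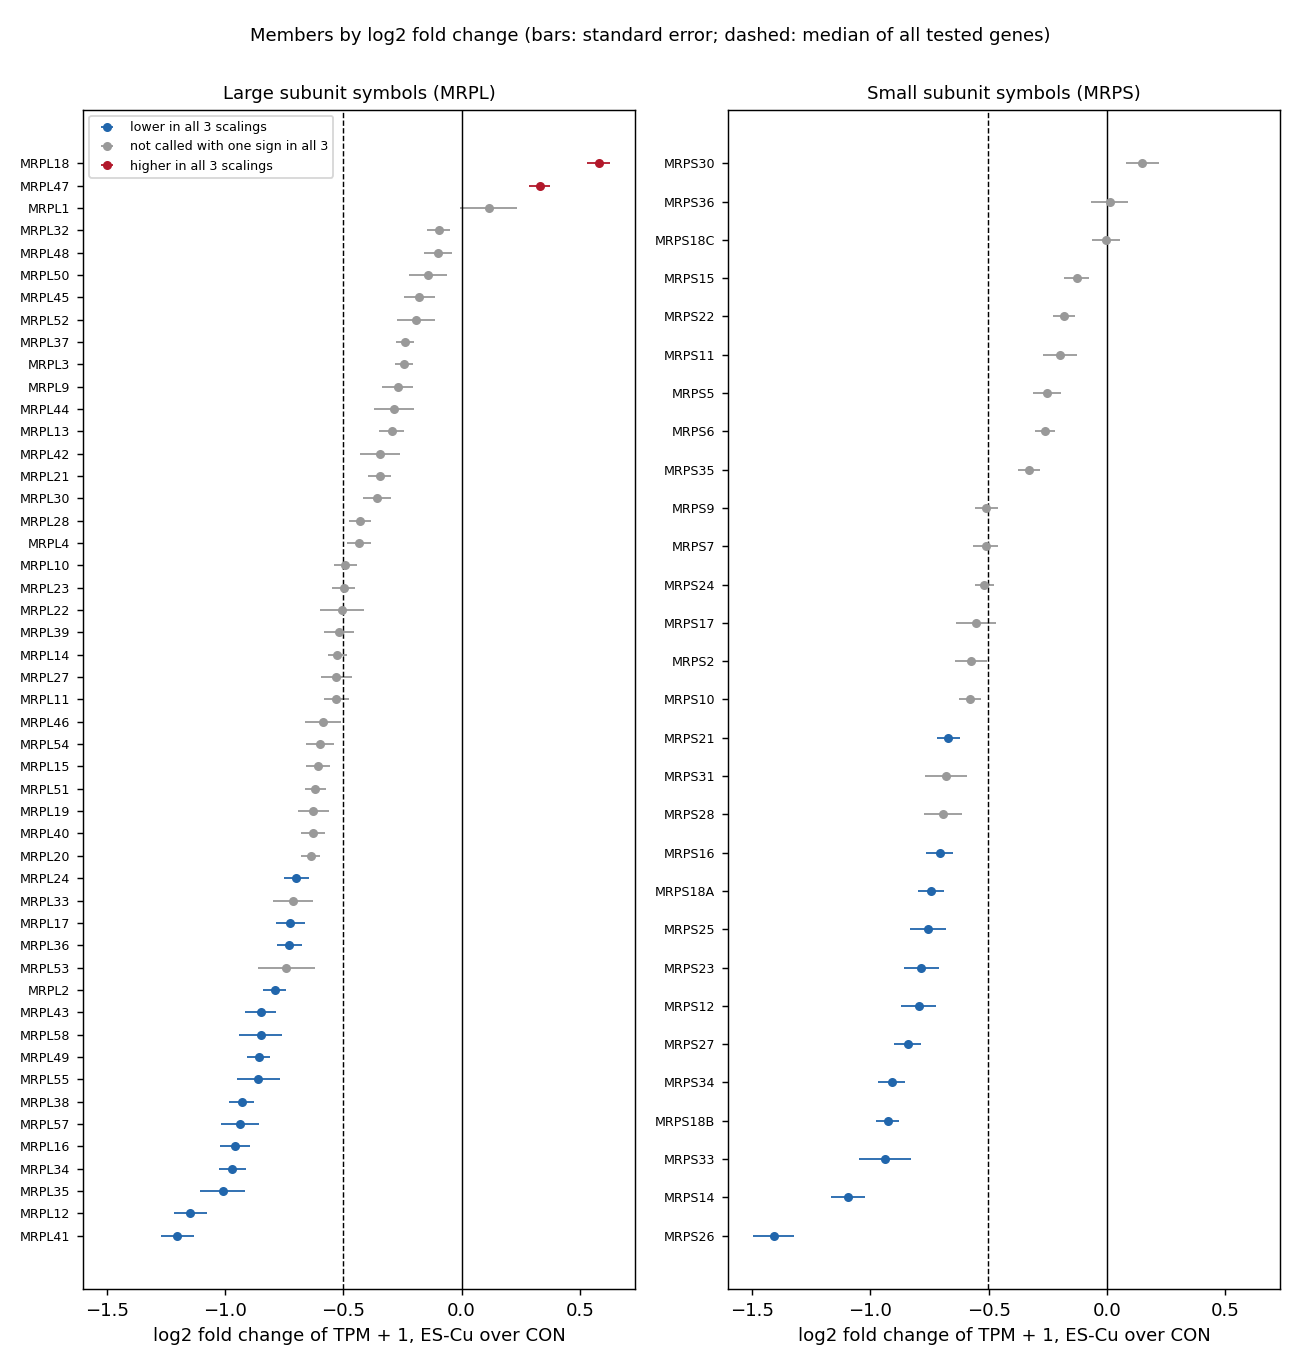
Log2 fold change of TPM + 1, ES-Cu over CON, of every MRPL gene (left) and MRPS gene (right), with bars for the standard error. Blue marks the 27 genes that were lower in all 3 scalings, red the 2 that were higher and grey the others; the dashed line is the median of all tested genes at -0.50. MRPL18 and MRPL47 stand alone on the right, and MRPS26 has the lowest value at -1.41.

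**Figure D3:**
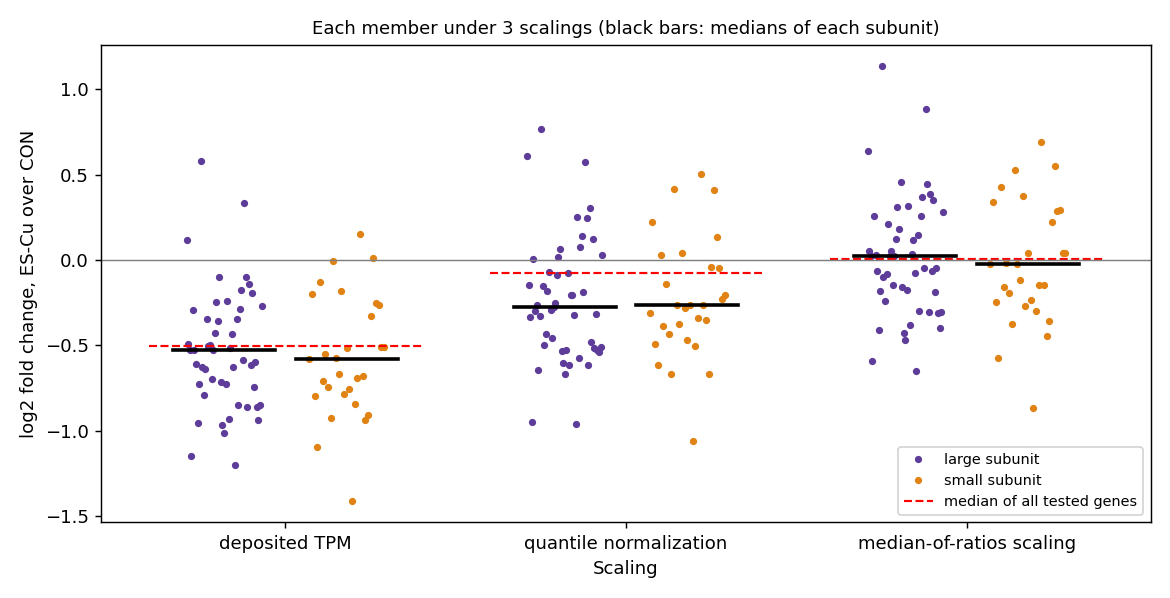
Log2 fold change of each MRPL gene (purple) and MRPS gene (orange), ES-Cu over CON, under the deposited values, quantile normalization and median-of-ratios scaling. Black bars are the medians of each subunit, which lie at -0.53 and -0.58 in the deposited values and at 0.023 and -0.026 after median-of-ratios scaling, and red dashed lines are the medians of all tested genes.

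MRPL18 rose. It belongs to the central protuberance of the large subunit, in the place where its bacterial counterpart binds a small ribosomal RNA. In heat-shocked human cells, a form of MRPL18 that stays in the cytosol has been described to aid translation of heat shock protein mRNAs. Its level was 211, 206 and 201 TPM in the ES-Cu libraries, against 135, 131 and 147 TPM in the CON libraries. The groups did not overlap (log2 fold change 0.58, SE 0.049, adjusted p = 7.3e-07), and MRPL18 stood at rank 4 of the 78 levels in ES-Cu cells and at rank 22 in CON cells. Its log2 fold change was 1.14 after median-of-ratios scaling and 0.77 after quantile normalization.

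The start of MRPL18 lies head to head with that of TCP1, a subunit of the CCT chaperonin that folds actin and tubulin. In the RefSeq promoter table for GRCh38.p14, the starts were 210 bases apart on chromosome 6, whereas in GENCODE they were 63 bases apart. The stretch between the RefSeq starts is shown because both genes rose: TCP1 had 788, 806 and 761 TPM in the ES-Cu libraries, against 539.9, 556 and 538 TPM in the CON libraries (log2 fold change 0.53, adjusted p = 1.63e-07). A pair of sites with the inverted repeats of a heat shock element, GAANNTTC or TTCNNGAA, were found just inside the listed starts of MRPL18, one after the first start and one after the second start, which lies 55 bases downstream. The sites are shown with the repeat in capitals and each lies on the plus strand.
Between the TCP1 and MRPL18 starts, chr6:159789603-159789811: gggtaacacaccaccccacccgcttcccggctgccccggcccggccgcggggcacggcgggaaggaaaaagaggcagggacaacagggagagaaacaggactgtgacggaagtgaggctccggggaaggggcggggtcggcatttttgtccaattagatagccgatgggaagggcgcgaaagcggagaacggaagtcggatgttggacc
MRPL18, after the first start, chr6:159789815-159789844: gggaagaggttGAACCTTCgcctcaaacga
MRPL18, after the second start, chr6:159789867-159789896: attctagtgccTTCTAGAAaaggttgtaag
Such matches are common. Of 70 members with a promoter in the table (250 bases before to 50 after each listed start, both strands), 6 (8.57%) held GAANNTTC and 10 (14.3%) held TTCNNGAA, beside 6.39% and 8.31% of 9821 tested genes. The matches describe letters in a window and were not tested as binding sites.

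MRPL47 was the other member that rose. It lies at the rim of the tunnel through which the new protein leaves the large subunit. Its level was 131, 134 and 133 TPM in the ES-Cu libraries, against 109, 100.5 and 107 TPM in the CON libraries. The groups did not overlap (log2 fold change 0.33, SE 0.044, adjusted p = 2.78e-05). MRPL47 too shares its start region, with NDUFB5, which encodes a subunit of respiratory complex I, but that neighbour fell: NDUFB5 had 22.2, 22.2 and 23.8 TPM in the ES-Cu libraries, against 38.9, 42.5 and 41.2 TPM in the CON libraries (log2 fold change -0.82, adjusted p = 2.29e-07). The bases before the start of MRPL47, on the minus strand of chromosome 3, hold the motif CCGGAAG of ETS factors such as GABP, in capitals.
MRPL47, before the start, chr3:179604639-179604738: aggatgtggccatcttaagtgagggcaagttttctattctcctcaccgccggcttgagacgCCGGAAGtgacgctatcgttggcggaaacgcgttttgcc

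**Figure D4:**
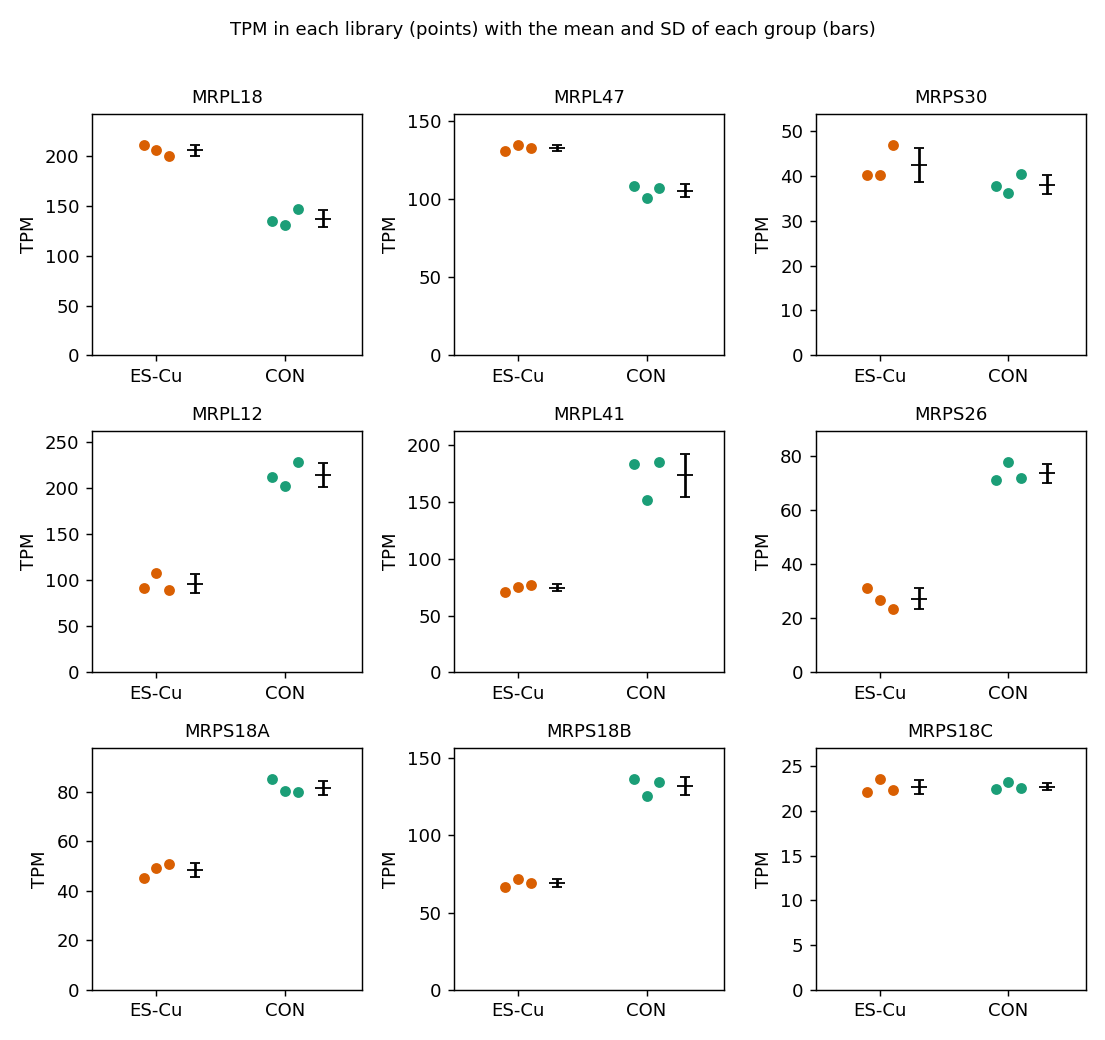
TPM of 9 members in each library, ES-Cu (orange) left of CON (green), with the mean and SD of each group in black and axes that start at 0. The ES-Cu points lie above the CON points for MRPL18 and MRPL47, below them for MRPL12, MRPL41, MRPS26, MRPS18A and MRPS18B, and overlap them for MRPS30 and MRPS18C.

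Among the 30 large subunit proteins with bacterial counterparts, 9 (30%) fell and 2 (6.67%) rose, beside 31.2% and 13.5% of all tested genes, with a median log2 fold change of -0.53. MRPL12 had one of the largest falls. It forms the flexible stalk that recruits translation factors, and it has also been described to bind the mitochondrial RNA polymerase. Its level was 91.8, 108 and 89.3 TPM in the ES-Cu libraries, against 213, 202 and 228 TPM in the CON libraries (log2 fold change -1.15, SE 0.070, adjusted p = 6.47e-08). Every ES-Cu library lay under every CON library. MRPL12 shares 68.2% of its exon bases with the overlapping gene AC139530.2 on the same strand in GENCODE, so reads of these genes may not have been separated. Its neighbours at the stalk base did not share its call in all scalings. MRPL10, which anchors the stalk, had 34.9, 34.8 and 34.7 TPM with ES-Cu and 50.7, 48.6 and 48.9 TPM in CON, and MRPL11 had 119, 119 and 134 TPM with ES-Cu and 187, 174 and 177 TPM in CON. Their log2 fold changes of -0.49 and -0.53 lay near that of the median gene and became 0.052 and 0.024 after median-of-ratios scaling.

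Other large subunit proteins of bacterial ancestry with low fold changes were MRPL35, MRPL34 and MRPL16. MRPL35 had 29.6, 34.5 and 27.1 TPM in the ES-Cu libraries, against 67.5, 64.4 and 54.6 TPM in the CON libraries (log2 fold change -1.01, SE 0.094, adjusted p = 1.66e-06). MRPL34 had 28.0, 25.5 and 25.9 TPM with ES-Cu and 50.7, 54.9 and 52.9 TPM in CON (log2 fold change -0.97, SE 0.058, adjusted p = 5.66e-08), and MRPL16, which lies near the catalytic centre, had 43.5, 38.0 and 45.3 TPM with ES-Cu and 83.1, 81.9 and 83.6 TPM in CON (log2 fold change -0.96, SE 0.063, adjusted p = 1.14e-07). All 3 fell, with no overlap between groups. At the other end, MRPL1, which forms part of the side stalk near the exit of the tRNA, had 15.6, 15.2 and 13.9 TPM with ES-Cu and 16.5, 14.0 and 11.0 TPM in CON, groups that overlapped, and a log2 fold change of 0.12, adjusted p = 0.38. MRPL1 was called higher at 0.64 after median-of-ratios scaling and at 0.61 after quantile normalization.

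Of the 19 large subunit proteins particular to mitochondria, 6 fell and 0 rose, with a median of -0.60. The share that fell, 31.6%, was near the 31.2% of all tested genes. MRPL41 had the lowest log2 fold change of the large subunit, with 70.9, 74.8 and 77.1 TPM in the ES-Cu libraries, against 183, 152 and 185 TPM in the CON libraries (log2 fold change -1.20, SE 0.071, adjusted p = 5.17e-08). MRPL57, a small protein, had 18.4, 20.5 and 21.5 TPM with ES-Cu and 35.5, 41.7 and 41.2 TPM in CON (log2 fold change -0.94, SE 0.080, adjusted p = 7.78e-07), and MRPL58, a peptidyl-tRNA hydrolase that frees stalled ribosomes, had 27.3, 31.4 and 36.9 TPM with ES-Cu and 56.1, 61.0 and 56.6 TPM in CON (log2 fold change -0.85, SE 0.090, adjusted p = 4.66e-06). These 3 genes fell; for MRPL58 the adjusted p after median-of-ratios scaling was 0.052 without CON replicate 2. MRPL44, which resembles an RNA-cutting enzyme of bacteria, and MRPL45, which holds the ribosome to the inner membrane at the tunnel exit, had log2 fold changes nearer to 0. MRPL44 had 33.3, 38.1 and 30.3 TPM with ES-Cu and 45.1, 39.1 and 40.1 TPM in CON (log2 fold change -0.29, adjusted p = 0.0079) and MRPL45 had 54.2, 49.7 and 58.7 TPM with ES-Cu and 64.8, 58.3 and 61.1 TPM in CON (log2 fold change -0.18, adjusted p = 0.026), but both had positive values after median-of-ratios scaling, 0.26 and 0.37. The adjusted p of MRPL45 lay between 0.051 and 0.11 without CON replicate 1, CON replicate 3, ES-Cu replicate 1 or ES-Cu replicate 2.

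By place in the large subunit, calls went both ways at the central protuberance and at the exit tunnel. Of 8 proteins of the central protuberance, MRPL18 rose, MRPL38 (log2 fold change -0.93) and MRPL55 (-0.86) fell, and 5 had no common call. Of 5 proteins at the stalk and the GTPase centre, MRPL12 fell and 4 had no common call. Of 8 at the exit tunnel, MRPL47 rose, MRPL17 (-0.72) and MRPL24 (-0.70) fell, and 5 had no common call. At these places in that order, 25%, 20% and 25% fell, beside 31.2% of all tested genes. The shares that rose were 12.5%, 0% and 12.5%, beside 13.5%, and differences between places were not tested. Without 1 library, the adjusted p after median-of-ratios scaling reached 0.073 for MRPL17 without ES-Cu replicate 1 and 0.059 without CON replicate 3, and 0.057, 0.126, 0.089 and 0.124 for MRPL24 without CON replicate 1, CON replicate 3, ES-Cu replicate 1 and ES-Cu replicate 3.

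In the small subunit, the 16 proteins with bacterial counterparts included 4 that fell and 0 that rose, with a median of -0.54. The share that fell was 25%, beside 31.2% of all tested genes. MRPS14 had the lowest log2 fold change among them, with 10.1, 11.0 and 9.60 TPM in the ES-Cu libraries, against 23.1, 22.6 and 23.1 TPM in the CON libraries (log2 fold change -1.09, SE 0.071, adjusted p = 1.07e-07). It fell with no overlap between groups. MRPS12, part of the decoding centre, had 48.6, 58.7 and 48.6 TPM with ES-Cu and 94.3, 85.9 and 92.0 TPM in CON (log2 fold change -0.80, SE 0.073, adjusted p = 1.43e-06). It also fell, but its adjusted p after median-of-ratios scaling was 0.023 with all libraries and 0.071, 0.056, 0.084 and 0.085 without CON replicate 1, CON replicate 3, ES-Cu replicate 1 and ES-Cu replicate 3.

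The 10 small subunit proteins particular to mitochondria had a median of -0.81, and 7 of them (70.0%) fell, beside 31.2% of all tested genes. MRPS18B, which fell, is counted in this list, though it is among the paralogues of a bacterial protein described below. All 10 had ES-Cu libraries under all CON libraries, as did 70.3% of all tested genes. The median of the group was -0.28 after median-of-ratios scaling, with 7 called lower and 2 called higher, and -0.32 after quantile normalization, the same to 2 decimals as that of the large subunit proteins particular to mitochondria. MRPS26 had the lowest log2 fold change of all 78 members, with 31.2, 26.9 and 23.5 TPM in the ES-Cu libraries, against 71.2, 77.7 and 71.7 TPM in the CON libraries (log2 fold change -1.41, SE 0.087, adjusted p = 7.09e-08). It stood at rank 61 of the members' levels in ES-Cu cells and at rank 45 in CON cells. MRPS33, one of the least abundant members, had 6.55, 5.35 and 4.87 TPM with ES-Cu and 12.8, 10.7 and 11.2 TPM in CON (log2 fold change -0.94, SE 0.11, adjusted p = 1.08e-05), and its adjusted p after quantile normalization was 0.055 without CON replicate 1. MRPS34 had 89.6, 84.0 and 78.5 TPM with ES-Cu and 157, 152 and 168 TPM in CON (log2 fold change -0.91, SE 0.057, adjusted p = 7.5e-08), and MRPS27, an RNA-binding repeat protein, had 35.1, 33.9 and 37.9 TPM with ES-Cu and 62.0, 66.9 and 64.96 TPM in CON (log2 fold change -0.84, SE 0.057, adjusted p = 1.32e-07). All of these fell.

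The bases before the starts of MRPS26 and MRPL12 are shown for a member with the ETS motif, here read on the other strand as CTTCCGG in capitals, and for one in which the motifs searched were not found in these bases. Both are on the plus strand, MRPS26 on chromosome 20 and MRPL12 on chromosome 17.
MRPS26, before the start, chr20:3045952-3046051: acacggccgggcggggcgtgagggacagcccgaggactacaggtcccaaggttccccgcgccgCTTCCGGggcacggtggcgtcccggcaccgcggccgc
MRPL12, before the start, chr17:81703267-81703366: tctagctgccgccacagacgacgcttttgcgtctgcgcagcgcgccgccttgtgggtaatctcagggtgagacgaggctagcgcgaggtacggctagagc
CCGGAAG was found in 30 of 70 member promoters (42.9%), beside 23.0% of tested genes and 12.2% of all genes in the table. Of the members that fell and have a promoter there, 12 of 25 held it, as did 2 of 2 that rose. The YY1 motif AAGATGGCG was found in 13 (18.6%), beside 4.86% of tested genes, and the NRF1 core CGCATGCG in 3 (4.29%), beside 4.59%.

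In structures of the human mitochondrial ribosome, MRPS6, MRPS16, MRPS18A, MRPS18C and MRPS25 lie at iron-sulfur clusters. Of these 5, 3 fell and 0 rose, beside 31.2% and 13.5% of all tested genes, with a median log2 fold change of -0.71. MRPS16 had 41.5, 43.9 and 42.0 TPM in the ES-Cu libraries, against 64.9, 72.5 and 72.7 TPM in the CON libraries (log2 fold change -0.71, SE 0.057, adjusted p = 5.01e-07). MRPS25 had 9.97, 10.6 and 11.5 TPM in the ES-Cu libraries, against 18.3, 18.2 and 19.7 TPM in the CON libraries (log2 fold change -0.76, SE 0.076, adjusted p = 2.95e-06). These genes and MRPS18A fell. MRPS6 had 117, 119 and 112 TPM with ES-Cu and 141, 138 and 139.7 TPM in CON (log2 fold change -0.26, adjusted p = 0.000121), with no overlap, but 0.29 after median-of-ratios scaling. The calls of MRPS16 and MRPS25 were lost after median-of-ratios scaling without some libraries: the adjusted p of MRPS16 was 0.087, 0.098, 0.116 and 0.085 without CON replicate 2, CON replicate 3, ES-Cu replicate 1 and ES-Cu replicate 3, and that of MRPS25 was 0.061 and 0.068 without CON replicate 3 and ES-Cu replicate 1.

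The MRPS18 genes are 3 paralogues of a single bacterial protein. They did not share one pattern. MRPS18B, in the small subunit, fell, with 66.6, 71.4 and 69.0 TPM in the ES-Cu libraries, against 136, 125 and 134 TPM in the CON libraries (log2 fold change -0.93, SE 0.049, adjusted p = 2.39e-08). MRPS18A, in the large subunit, had 45.2, 49.1 and 50.8 TPM in the ES-Cu libraries, against 84.9, 80.1 and 79.7 TPM in the CON libraries (log2 fold change -0.74, SE 0.055, adjusted p = 2.72e-07) and fell too; its adjusted p after median-of-ratios scaling was 0.054 and 0.059 without CON replicate 1 and ES-Cu replicate 1, and it was 0.078 with the GC trend removed. MRPS18C had 22.1, 23.5 and 22.3 TPM in the ES-Cu libraries, against 22.4, 23.2 and 22.6 TPM in the CON libraries. Its groups overlapped (log2 fold change -0.0040, adjusted p = 0.95), and after median-of-ratios scaling it was called higher at 0.53. In GENCODE, MRPS18A shares 47.0% of its exon bases with RSPH9 and MRPS18C 40.2% with ABRAXAS1, both on the opposite strand, and strand use in counting was not given in the sources used here.

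MRPS30 and MRPS36 bear small subunit symbols without being part of that subunit. MRPS30, a large subunit protein, had 40.3, 40.1 and 46.9 TPM in the ES-Cu libraries, against 37.7, 36.2 and 40.4 TPM in the CON libraries. The groups overlapped by 1 CON library (log2 fold change 0.15, adjusted p = 0.066), and MRPS30 was called higher at an adjusted p of 0.043, 0.049 and 0.0495 without CON replicate 3, ES-Cu replicate 1 and ES-Cu replicate 2. MRPS36, of the oxoglutarate dehydrogenase complex, had 28.6, 28.7 and 26.5 TPM in the ES-Cu libraries, against 27.9, 24.6 and 30.7 TPM in the CON libraries (log2 fold change 0.013, adjusted p = 0.88). After median-of-ratios scaling MRPS30 was called higher at 0.69 and MRPS36 at 0.55. After quantile normalization they were called higher at 0.50 and 0.41. With the genes assigned by place, the medians were -0.53 for 51 large subunit and -0.62 for 26 small subunit members.

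Of the 5 ribosomal proteins whose symbols do not begin with MRP, DAP3 rose and CHCHD1 fell, 1 of 5 (20%) in each direction, beside 13.5% and 31.2% of all tested genes. DAP3, a GTP-binding protein of the small subunit first described in cell death, had 215, 209.7 and 215 TPM in the ES-Cu libraries, against 161, 151 and 161 TPM in the CON libraries (log2 fold change 0.43, SE 0.041, adjusted p = 1.92e-06). CHCHD1 of the small subunit had 34.0, 30.5 and 28.9 TPM in the ES-Cu libraries, against 59.4, 61.4 and 60.5 TPM in the CON libraries (log2 fold change -0.94, SE 0.062, adjusted p = 1.21e-07). AURKAIP1, PTCD3 and GADD45GIP1 had log2 fold changes of -0.55, -0.37 and -0.74, each with no overlap between groups and with no common call in the 3 scalings.

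Of 28 factors that build the mitochondrial ribosome, 10 (35.7%) fell and 2 (7.14%) rose, with a median of -0.68. The share that fell was near the 31.2% of all tested genes, and 13.5% of these rose. TFB1M, the methyltransferase of the small subunit RNA, had 15.1, 14.2 and 14.9 TPM in the ES-Cu libraries, against 40.9, 37.6 and 38.7 TPM in the CON libraries (log2 fold change -1.35, SE 0.061, adjusted p = 7.94e-09). ERAL1, which escorts that RNA, had 29.6, 27.4 and 34.0 TPM with ES-Cu and 68.2, 64.4 and 62.5 TPM in CON (log2 fold change -1.08, SE 0.074, adjusted p = 1.54e-07), and YBEY, an RNA-processing enzyme, had 4.24, 6.77 and 6.03 TPM with ES-Cu and 11.7, 11.97 and 12.2 TPM in CON (log2 fold change -0.97, SE 0.13, adjusted p = 2.96e-05), with an adjusted p after quantile normalization of 0.063, 0.072 and 0.067 without CON replicate 2, CON replicate 3 and ES-Cu replicate 1. These 3 fell. The 2 that rose were NGRN, with 96.6, 97.6 and 90.3 TPM with ES-Cu and 78.8, 85.9 and 81.5 TPM in CON (log2 fold change 0.21, adjusted p = 0.0026), and RPUSD4, with 11.4, 12.1 and 13.0 TPM with ES-Cu and 10.7, 11.1 and 9.07 TPM in CON (log2 fold change 0.23, adjusted p = 0.037), which act on the large subunit RNA; the adjusted p of RPUSD4 was 0.159, 0.069 and 0.125 without CON replicate 3, ES-Cu replicate 2 and ES-Cu replicate 3.

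Of 19 translation factors and related genes tested, 6 (31.6%) fell and 2 (10.53%) rose, shares near the 31.2% and 13.5% of all tested genes, with a median of -0.50. TSFM, the exchange factor of the elongation factor that delivers tRNAs, had 16.6, 17.2 and 14.5 TPM in the ES-Cu libraries, against 43.5, 41.6 and 43.1 TPM in the CON libraries (log2 fold change -1.36, SE 0.070, adjusted p = 2.21e-08). MTFMT, which formylates the initiator tRNA, had 5.24, 5.60 and 7.39 TPM with ES-Cu and 12.5, 16.1 and 13.7 TPM in CON (log2 fold change -1.10, SE 0.13, adjusted p = 8.25e-06), and the initiation factor MTIF3 had 20.6, 19.3 and 19.9 TPM with ES-Cu and 38.5, 44.7 and 37.9 TPM in CON (log2 fold change -0.98, SE 0.071, adjusted p = 2.26e-07). These fell. The 2 that rose were LRPPRC, which stabilises mitochondrial mRNAs, at a log2 fold change of 0.097, adjusted p = 0.045, and the release factor MTRF1L, at 0.19, adjusted p = 0.03. Both calls were lost without some libraries. The adjusted p of LRPPRC was 0.090, 0.154, 0.136 and 0.069 without CON replicate 1, CON replicate 3, ES-Cu replicate 1 and ES-Cu replicate 2. The adjusted p of MTRF1L was 0.057, 0.101 and 0.127 without CON replicate 1, CON replicate 2 and ES-Cu replicate 1.

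Of 11 genes of mitochondrial DNA upkeep and transcription, 4 (36.4%) fell, beside 31.2% of all tested genes, and 0 rose, beside 13.5%, with a median of -0.36. PRIMPOL, a primase and polymerase, had 3.36, 2.75 and 2.72 TPM in the ES-Cu libraries, against 7.97, 8.95 and 7.77 TPM in the CON libraries (log2 fold change -1.23, SE 0.11, adjusted p = 8.55e-07). POLG2, a subunit of the mitochondrial DNA polymerase, had 10.1, 10.7 and 8.29 TPM with ES-Cu and 20.3, 19.7 and 19.5 TPM in CON (log2 fold change -0.97, SE 0.090, adjusted p = 1.55e-06), and POLRMT, the mitochondrial RNA polymerase, had 15.6, 14.8 and 14.6 TPM with ES-Cu and 29.5, 26.6 and 30.3 TPM in CON (log2 fold change -0.89, SE 0.069, adjusted p = 3.57e-07). All 3 fell, but with the GC trend removed POLRMT, at -0.13, was no longer called.

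Of 8 tested regulators known to act on genes of the mitochondrial ribosome, 1 (12.5%) fell and 3 (37.5%) rose, beside 31.2% and 13.5% of all tested genes, with a median of -0.13. GABPA and GABPB1 are the subunits of GABP, one of the factors that bind the ETS motif. GABPA had 36.3, 32.5 and 32.4 TPM in the ES-Cu libraries, against 18.2, 21.0 and 18.4 TPM in the CON libraries (log2 fold change 0.78, SE 0.074, adjusted p = 1.82e-06), and GABPB1 had 43.0, 39.8 and 45.5 TPM in the ES-Cu libraries, against 28.4, 28.7 and 25.2 TPM in the CON libraries (log2 fold change 0.62, SE 0.069, adjusted p = 6.92e-06). Both rose with no overlap. PPRC1, a coactivator, rose at a log2 fold change of 0.23, adjusted p = 0.026, but its groups overlapped. It had 24.1, 20.7 and 25.9 TPM in the ES-Cu libraries, against 20.2, 18.6 and 20.8 TPM in the CON libraries. The adjusted p of PPRC1 was 0.091, 0.069 and 0.111 without CON replicate 2, ES-Cu replicate 1 and ES-Cu replicate 3. ESRRA, a nuclear receptor of mitochondrial genes, had 63.1, 57.7 and 59.8 TPM in the ES-Cu libraries, against 100.4, 92.1 and 101 TPM in the CON libraries (log2 fold change -0.69, SE 0.054, adjusted p = 3.86e-07) and fell. After median-of-ratios scaling its adjusted p was 0.081, 0.083, 0.072 and 0.063 without CON replicate 1, CON replicate 3, ES-Cu replicate 2 and ES-Cu replicate 3, and its log2 fold change was 0.034 with the GC trend removed.

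Beside the members, 2 other groups of nuclear genes are given as a description, with no test between groups. Complex I subunits were taken by symbol alone, as NDUFA, NDUFB, NDUFC, NDUFS or NDUFV followed by a digit. Of these 39 genes, 12 (30.8%) fell and 2 (5.13%) rose, with a median of -0.56. Of 80 tested cytosolic ribosomal proteins, 1 (1.25%) fell and 6 (7.5%) rose, with a median of -0.050. Over all tested genes, 31.2% fell and 13.5% rose. After median-of-ratios scaling these medians were -0.021 and 0.51, beside -0.026 for the mitochondrial ribosomal proteins. After quantile normalization they were -0.32 and -0.11, beside -0.27 for the mitochondrial ribosomal proteins and -0.074 for all tested genes.

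Many members share a start region with another gene. In GENCODE, 29 of 78 members (37.2%) had a protein-coding neighbour on the other strand that starts within 1000 bases, beside 17.9% of tested genes. Of the 24 with a tested neighbour, 6 neighbours (25%) fell, beside 31.2% of all tested genes, and 5 (20.8%) rose, beside 13.5%. Besides MRPL18 with TCP1, both genes of a pair fell for MRPL57 with SKA3 (log2 fold change -0.74, adjusted p = 8.18e-06) and for MRPS27 with PTCD2 (-1.30, adjusted p = 3.77e-06); the adjusted p of SKA3 after median-of-ratios scaling was 0.096, 0.105 and 0.129 without CON replicate 1, CON replicate 2 and ES-Cu replicate 3. Calls were opposite for MRPL47 with NDUFB5 and for MRPS18B with PPP1R10 (0.46, adjusted p = 9.02e-05). MRPL46 and MRPS11, members of different subunits, start next to each other and had log2 fold changes of -0.59 and -0.20.

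**Figure D5:**
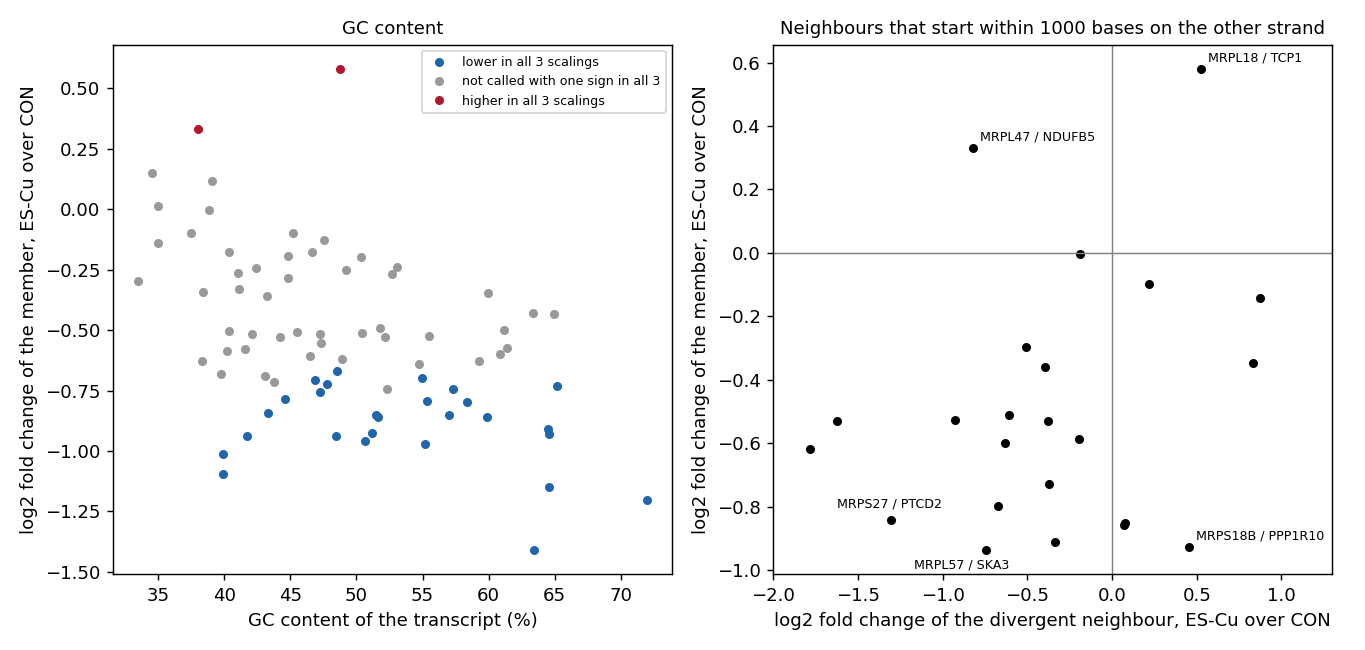
Left, log2 fold change of each member, ES-Cu over CON, against the GC content of its transcript in percent, in blue where it fell, red where it rose and grey otherwise. Right, the log2 fold change of members against that of the neighbour that starts within 1000 bases on the other strand, with names where both genes were called in all 3 scalings; the lowest members include the most GC-rich one, MRPL41 at 71.9%.

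The members' transcripts were shorter than those of other genes, with a median of 1722 bases against 3644 over all tested genes, and had a median GC content of 47.7% against 48.4%. GC content and log2 fold change of the members correlated at r = -0.48 (Spearman's rho -0.44, n = 78), where the same correlation over all tested genes was -0.16 (rho -0.21). MRPL41 at 71.9%, MRPL12 at 64.6% and MRPS26 at 63.4% GC were among the lowest in fold change, and MRPL47 at 38.0% and MRPS30 at 34.5% among the highest, while MRPS14 fell at 39.9% and MRPL18 rose at 48.7%. These points share the same 6 libraries, and the part of base composition in the fold changes was not tested. Removal of the GC trend also took out the shift common to all genes of a library. It therefore cannot separate base composition from scaling. With the CON level the log2 fold change correlated at r = -0.067. A pseudogene named after the gene is annotated for 34 members, and 12 share over 20% of their exon bases with another gene, so their reads may have been divided. Besides MRPL12, MRPS18A and MRPS18C, these 12 include MRPL38 (37.5%, with AC087289.3) and MRPS24 (23.2%, with URGCP-MRPS24), both on the same strand. They also include MRPS25 (22.2%, with NR2C2 on the opposite strand).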

How the data were processed

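Total RNA was sequenced as 50-base single-end reads on a BGISEQ-500, per the labels' protocols. The authors deposited 1 table of TPM for 16809 human genes in 6 libraries. The submitters' processing notes name the aligners HISAT and Bowtie2; the tool behind TPM, its annotation and its strand setting are not given in the sources used here. A mouse build, GRCm38.p6, is listed, so no coordinates were taken from these notes. Read totals cannot be had from TPM, so depth and counting error are unknown.

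For 11927 genes averaging 1 TPM or more, log2(TPM + 1) entered limma 3.58.1 (R 4.3.3; trended variance prior, two-sided tests, Benjamini-Hochberg over all of these genes, threshold 0.05, no replicate block), ES-Cu over CON. Fold changes on that scale understate changes of low genes. Standard deviations are over 3 libraries. The same test was run after median-of-ratios scaling and quantile normalization. Alternatives were pseudocounts of 0.1 and 0.5, no filter, a filter of 5 TPM, no trend, removal of the 20 highest genes, each library left out in turn and a replicate block. Correction for the GC trend was chosen after seeing the data. It subtracted from each library a smooth curve, over GC content, of the deviations from the gene means. The shift common to all genes of a library was thereby removed as well. The code was tested on simulated data.

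The members, the lists and the rule of 3 scalings were chosen with earlier results of these data known. Named genes were 16 fixed members, up to 6 members of each subunit with the lowest fold change among those with a mean of 5 TPM in a group that fell, the 3 highest of each subunit, the other ribosomal proteins, and up to 3 genes of each further list. Other genes, among them start-region neighbours, TP63, CDH1, SFN, NGRN, RPUSD4, LRPPRC, MTRF1L and PPRC1, were named after their values were seen. Transcript lengths, GC content (99.4% of tested genes), neighbours and overlaps came from GENCODE, and promoters from RefSeq (GRCh38.p14), matched by gene identifier for 70 of 78 members.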

Additional observations from a re-analysis of the deposited data

How the results depend on the processing

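Scaling moved the results most. After median-of-ratios scaling, quantile normalization and GC trend removal, all genes called lower numbered 4266, 4756 and 4153, against 8351 in the deposited values, and all genes called higher 4532, 3749 and 4352, against 1628. Members called lower numbered 27, 52 and 30 in the order above, and members called higher 25, 10 and 22. The median log2 fold change of the members was then -0.026, -0.27 and -0.092, that of the large subunit 0.023, -0.28 and -0.0028, and that of the small subunit -0.026, -0.27 and -0.12. Without the 20 highest genes these medians were -0.42, -0.37 and -0.42, 4 members were called higher and 4 were higher in all 3 scalings, and the summed TPM differed by -0.35; it differed by 0.047 and -0.28 after median-of-ratios scaling and quantile normalization. With MRPS18A and MRPS30 counted as large subunit and MRPS36 left out, the small subunit median was -0.62 and the log2 ratio of the sums 0.042. As GC trend removal also takes out the shift common to all genes of a library, its values mix scaling with base composition. The cause of these shifts was not tested.

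Signs of some named genes turned. After median-of-ratios scaling, log2 fold changes were 0.052 for MRPL10, 0.37 for MRPL45, 0.26 for MRPL44, 0.53 for MRPS18C, 0.024 for MRPL11, 0.29 for MRPS6, 0.0053 for AURKAIP1 and 0.15 for PTCD3. After quantile normalization they were 0.14 for MRPL45, 0.078 for MRPL44, 0.42 for MRPS18C and 0.12 for PTCD3. With the GC trend removed they were 0.041 for MRPL10, 0.26 for MRPL45, 0.13 for MRPL44, 0.34 for MRPS18C, 0.0096 for MRPL11, 0.11 for MRPS6, 0.23 for AURKAIP1, 0.030 for PTCD3 and 0.034 for ESRRA. Without the 20 highest genes MRPS18C was at 0.15.

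Without each library in turn, the medians ranged from -0.60 to -0.55 for all members, from -0.59 to -0.54 for the large and from -0.62 to -0.55 for the small subunit. MRPS36 ranged from -0.067 to 0.086, MRPS18C from -0.030 to 0.012 and MRPL1 from -0.030 to 0.24. Members that fell numbered 22 to 29, and small subunit members that fell 8 to 13.

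Libraries of equal replicate number had hardly correlated deviations from their group means (r = 0.021, -0.034 and 0.011). Whether libraries were made in pairs cannot be told from these values. With a replicate block, 68 members were called lower and 3 higher, MRPS30 being added; 27 were lower and 3 higher in all 3 scalings. Pseudocounts of 0.1 and 0.5 and the filter of 5 TPM left both counts in all 3 scalings at 27 and 2, whereas 25 were lower without a filter and 23 without the trend. No counting interval could be given, as TPM keeps no depth.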
